A study of Mus musculus with 5 samples.

Results

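The genes described here are 49 components of DNA replication: the proteins that load and activate the replicative helicase, the polymerases with their clamp and accessory factors, the enzymes that supply deoxynucleotides, the E2F transcription factors, and the pair of proteins that copy DNA methylation behind the fork. They were chosen by name, with earlier results of these data known, and all 49 were among the 14454 gene symbols of the deposited tables. Expression was measured by RNA sequencing in NIH/3T3, an immortalised line of mouse embryonic fibroblasts. In 4 lines, numbered 3, 6, 15 and 18, EGFP was fused to human histone H2A bearing the T120D substitution, from an integrated copy. In 1 line (wt) the fused human H2A was wild type. All 5 lines therefore carried an EGFP-H2A transgene on top of the endogenous H2A genes, and all were grown in DMEM with serum and gentamicin. The T120D substitution places an aspartate, an acidic residue often used to stand in for phosphothreonine, in the C-terminal tail of the histone. The labels do not say whether a line was a clone or a pool, the transgene's own level was not analysed here, and wt had 1 line. The series title names phosphorylation at this residue, transformation and cyclin D1, a regulator of G1 phase. T120D was compared with wt.

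Replication begins with licensing in G1 phase. The origin recognition complex, with Cdc6 and Cdt1, places a ring of Mcm2 to Mcm7 around the DNA, and geminin later blocks Cdt1 so that no origin is licensed again. In S phase Cdc45 and the GINS complex join the ring to form the active helicase, and polymerases, the clamp PCNA and its loader follow. Many of these genes are transcribed through E2F factors, which bind close to the start site and are held in check by the retinoblastoma family until cyclin-dependent kinases release them.

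Values are RPKM, read numbers adjusted for gene length and for how many reads of that line were mapped, and the 4 T120D values of a gene are always given in the order of lines 3, 6, 15 and 18. Differences were tested as the T120D mean minus wt on the log2(RPKM + 1) scale with limma, over the 10052 genes that averaged 1 RPKM or more, and a gene was called at a Benjamini-Hochberg adjusted p under 0.05. On this scale the differences of genes of low expression are understated. Fold values are ratios of RPKM. With 1 wt line the spread comes from the T120D lines alone, wt is assumed to vary like them, and an exact permutation of 1 line against 4 cannot give a one-sided p below 0.2. An estimated 2520000 to 2720000 reads per line lie behind the values, so that 1 RPKM of a transcript of 2000 bases stands for 5.04 to 5.44 reads. Summed RPKM was 158614 to 160825 per line. Of the fibroblast markers, 10 of 10 reached 1 RPKM in at least 1 line, with sums of 2203 to 2540 RPKM in T120D and 2711 RPKM in wt. Of the 10, 7 were below wt in every T120D line (Col1a2, Col3a1, Pdgfrb, Pdgfra, Fbn1, S100a4 and Postn) and 2, Vim and Thy1, above it in every line. Pdgfra had 11.5 to 15.1 RPKM in T120D and 43.5 RPKM in wt, and Thy1 48.5 to 61.5 RPKM in T120D and 20.3 RPKM in wt. The 3 epithelial and 2 endothelial markers with a value stayed at or under 0.476 RPKM in every line, with Pecam1 at 0 in each. The 2 macrophage markers summed to 0.102 to 1.23 RPKM in T120D and 1.46 RPKM in wt, and the 3 neural markers to 2.88 to 4.69 RPKM in T120D and 4.11 RPKM in wt. Their part in the differences was not tested.

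A part of the replication genes was higher in the T120D lines, among them most MCM subunits, both subunits of ribonucleotide reductase, Pcna, Rpa1 and Fen1. Of the 49 members, all of which passed the filter on low values, 18 were called higher (36.7%) and 0 lower. Over all tested genes, 7.65% were called higher and 5.45% lower, 13.1% in either direction. An unadjusted limma p under 0.05 was reached by 26 members, the 18 called and a further 8. Over all tested genes it was reached by 2869 of 10052, in either direction. The members' median log2 difference was 0.48, against -0.02 over all tested genes, and single T120D lines gave medians of 0.46 (line 3), 0.49 (line 6), 0.55 (line 15) and 0.44 (line 18). All 4 T120D lines lay above wt for 37 members (75.5%, against 31.1% of tested genes), and in no member did all 4 lie below (32.3% of tested genes). The count of members called was 17 with a pseudocount of 0.1 RPKM (7.78% of tested genes higher), 9 without the filter on low values (3.14%), 10 by limma without a trend (4.53%), 18 of 38 at a mean of at least 5 RPKM (12.0%), 18 after median scaling (8.19%) and 18 after quantile normalization (7.89%). Leaving out a T120D line gave 12 without line 3 (5.54%), 18 without line 6 (7.93%), 14 without line 15 (6.11%) and 16 without line 18 (6.12%). In the RNA of a whole culture, more cells in S phase and more RNA per cell cannot be told apart. With 1 wt line, the T120D substitution and a trait of that wt line or its culture cannot be told apart either.

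**Figure D1:**
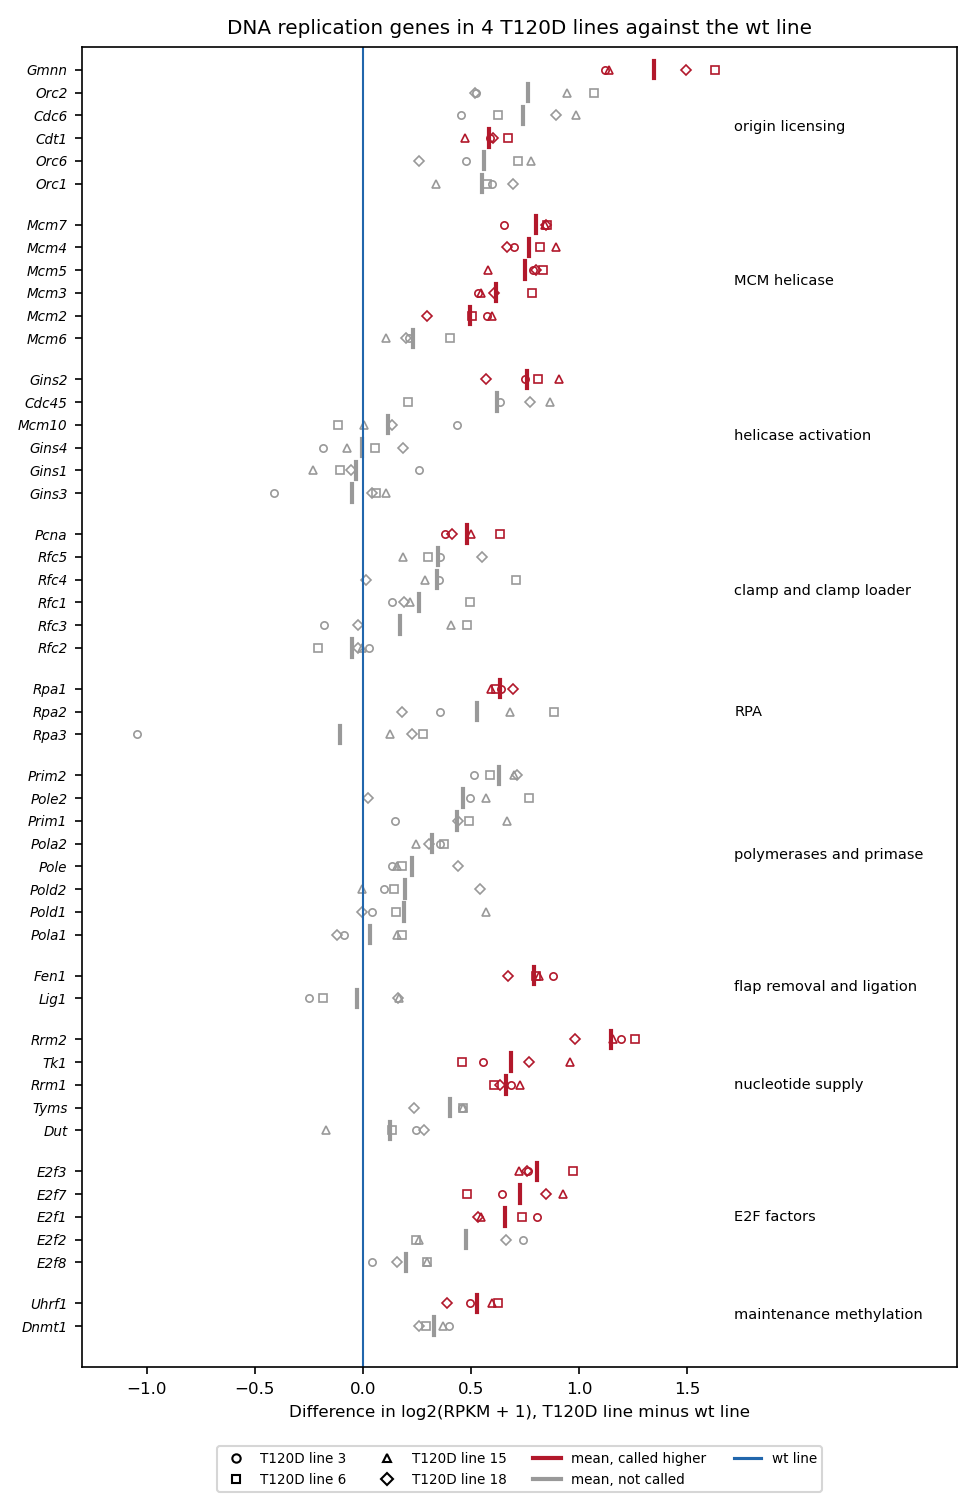
Difference in log2(RPKM + 1) of each T120D line from the wt line for the 49 members, grouped by role; symbols are single lines, short bars the mean of the 4, and the vertical line at 0 is wt. The 18 called members lie right of 0 in every T120D line, and their means run from 0.48 to 1.35.

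The promoters of the members are shown for the letters they share with E2F sites. RefSeq promoter windows on GRCm38.p6, from 250 bases before to 50 after a start, were found for 41 of the 49 genes by symbol. They were searched on both strands for TTTCCCGC, TTTCGCGC, TTTGCCGC and TTTGGCGC, which are forms of the E2F consensus; TTTGCCGC matched in 0 members. A match was present in 18 of the 41 genes (43.9%), against 2.60% of 27025 genes with a window and 5.22% of the 7588 tested genes with one. Called and uncalled members had close shares: 7 of 15 called members with a window held one (46.7%), and 11 of 26 that were not called (42.3%). CCAAT, the box read by the factor NF-Y, was in 28 of the 41 genes (68.3%). It was in 41.1% of all genes with a window and in 44.0% of the tested genes with one. Of 25 E2F-type matches, 15 were centred within 60 bases of the start. In 2 cases E2F-type matches overlapped each other, and 1 overlapped a CCAAT. A match is a description of the letters and not a bound site.

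**Figure D2:**
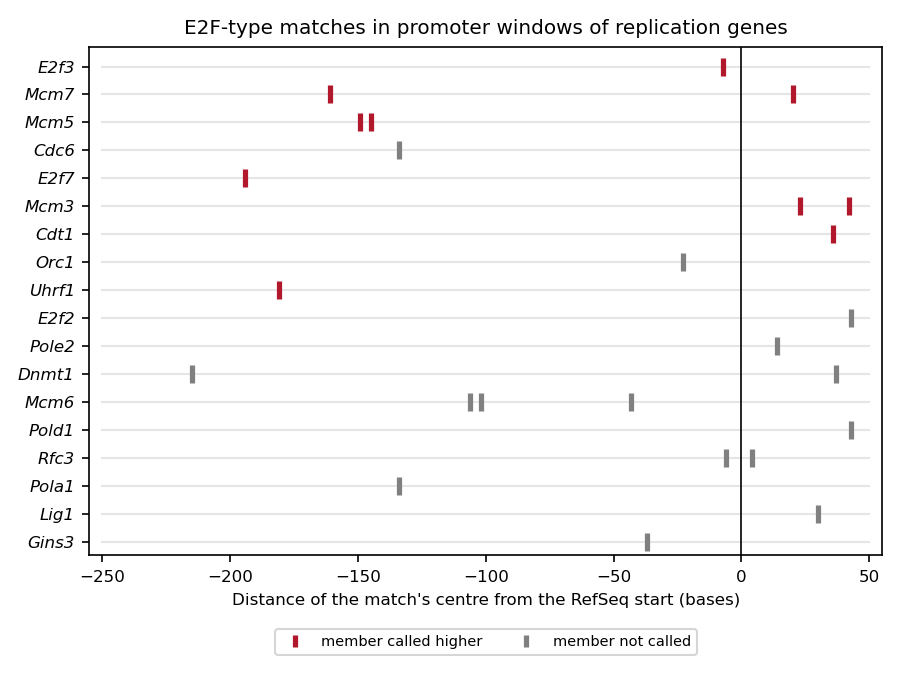
Centres of E2F-type matches in the promoter windows of the 18 members that hold one, as distance in bases from the RefSeq start; genes run from the highest log2 difference (top) to the lowest, with called members in red. Matches occur in 7 called and 11 uncalled members.

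Among the 6 genes of origin licensing, 2 were called, and all 6 were higher in every T120D line than in wt (median log2 difference 0.66). Of all tested genes, 7.65% were called higher and 31.1% lay above wt in every T120D line. Gmnn encodes geminin, the inhibitor of Cdt1. It had 6.07, 9.07, 6.15 and 8.16 RPKM in the T120D lines, against 2.25 RPKM in the wt line. The lowest T120D line was thus 2.70-fold above wt, and the mean was 3.27-fold higher (log2 difference 1.35, SE 0.24, limma adjusted p = 0.0076). The wt value of this short transcript stands for about 6.9 reads and the T120D values for about 17 to 28, so the size of the fold is uncertain. Without the filter on low values its limma adjusted p was 0.0597. Cdt1, which delivers the MCM ring to origins, had 14.6, 15.5, 13.4 and 14.7 RPKM in the T120D lines and 9.37 RPKM in wt. The 4 lines lay close together and all above wt, 1.55-fold on average (0.58, SE 0.14, limma adjusted p = 0.0298). That call ended without line 3 (limma adjusted p = 0.0625) or line 18 (0.0578), and by limma without a trend (0.0633). The ratio of Cdt1 to Gmnn RPKM was 2.41, 1.71, 2.17 and 1.80 in the T120D lines and 4.16 in wt.

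The window of Cdt1 lies at chr8:122567765-122568064 on the plus strand. Capitals mark its E2F-type match, TTTGGCGC, whose first base is at 32 relative to the RefSeq start.
Cdt1: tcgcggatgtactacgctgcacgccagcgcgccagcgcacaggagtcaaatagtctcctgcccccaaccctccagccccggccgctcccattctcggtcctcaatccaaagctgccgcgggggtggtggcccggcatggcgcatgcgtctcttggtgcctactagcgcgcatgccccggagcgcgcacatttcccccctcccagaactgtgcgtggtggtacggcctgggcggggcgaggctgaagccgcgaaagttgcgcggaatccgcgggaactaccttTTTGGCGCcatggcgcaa

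The other 4 licensing genes had differences of similar size without a call. Orc2, a subunit of the origin recognition complex, had 6.52, 9.99, 9.06 and 6.51 RPKM in T120D and 4.23 RPKM in wt, a log2 difference of 0.76 (95% confidence interval 0.21 to 1.31, limma adjusted p = 0.0728). Cdc6, the loader that acts with Cdt1, averaged 4.09 ± 0.847 RPKM in T120D (SD, n = 4) and 2.01 RPKM in wt, a difference of 0.74 (0.17 to 1.30, limma adjusted p = 0.0865). Their T120D lines spread more widely than those of Cdt1, with SDs of 0.28 and 0.24 on the log2 scale against 0.08. Orc6 and Orc1 differed by 0.56 and 0.55, with limma adjusted p of 0.101 and 0.113. Orc6 was called without line 18 (limma adjusted p = 0.046).

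Of the 6 subunits of the MCM helicase, 5 were called higher, against 7.65% of all tested genes. The group's median log2 difference was 0.68. Mcm7 had 20.8, 24.0, 23.8 and 23.9 RPKM in the T120D lines, against 12.9 RPKM in the wt line. It was 1.80-fold higher on average, with line 3 the lowest of the 4 (0.80, SE 0.14, limma adjusted p = 0.0065). Mcm4 had 29.0, 31.6, 33.3 and 28.3 RPKM in T120D and 17.5 RPKM in wt. All 4 lines were between 1.62 and 1.90 times wt (0.77, SE 0.13, limma adjusted p = 0.0067). Mcm5 had 22.8, 23.5, 19.5 and 23.0 RPKM in T120D and 12.8 RPKM in wt, 1.74-fold higher on average (0.75, SE 0.14, limma adjusted p = 0.0105). The calls of these 3 subunits held under each of the 10 alternative settings.

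Mcm3 had 32.5, 38.8, 32.8 and 34.2 RPKM in the T120D lines and 22.1 RPKM in wt. The mean was 1.56-fold higher, and line 6 was the highest (0.62, SE 0.13, limma adjusted p = 0.0172). Its call ended by limma without a trend (0.0653) and without the filter on low values (0.0583). Mcm2 had 39.5, 37.7, 40.2 and 32.4 RPKM in T120D and 26.2 RPKM in wt. All 4 lines were above wt, with line 18 nearest to it, and the mean was 1.43-fold higher (0.49, SE 0.14, limma adjusted p = 0.0482). This call is near the threshold: it ended without line 3 (0.0958), line 6 (0.0622) or line 15 (0.0875), with a pseudocount of 0.1 RPKM (0.0509), under quantile normalization (0.0646), without the filter (0.118) and without a trend (0.124).

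Mcm6 had 30.5, 34.9, 28.2 and 30.2 RPKM in the T120D lines and 26.2 RPKM in wt, and was not called. All 4 values lay above wt by 1.08-fold to 1.33-fold, a log2 difference of 0.23 with a 95% confidence interval of -0.08 to 0.54 (limma adjusted p = 0.308). The interval overlaps those of the other subunits, and whether Mcm6 differed from them was not tested. Its promoter window held 3 E2F-type matches, the highest count of any member. Those with first bases at -110 and -106 relative to the RefSeq start overlap, so they are not separate stretches. The level of the ring's subunits per length was also not even. In T120D the means ran from 37.5 ± 3.53 RPKM for Mcm2 through 34.6 ± 2.90 for Mcm3, 31.0 ± 2.80 for Mcm6, 30.5 ± 2.30 for Mcm4 and 23.1 ± 1.57 for Mcm7 to 22.2 ± 1.80 for Mcm5 (SD, n = 4). Neighbours in this order overlapped between lines except for Mcm4 and Mcm7, where the lowest Mcm4 value (28.3 RPKM) was above the highest Mcm7 value (24.0 RPKM). The highest subunit exceeded the lowest 1.49-fold to 2.06-fold in the T120D lines and 2.06-fold in wt. Summed over the 6 subunits, the level was 175, 190.5, 178 and 172 RPKM in T120D and 118 RPKM in wt.

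The windows of the 3 called subunits with E2F-type matches are printed with the matches in capitals. That of Mcm7 is at chr5:138171834-138172133 (minus strand), with matches whose first bases are at -165 (TTTCCCGC, reverse strand) and 16 (TTTCGCGC) relative to the RefSeq start. That of Mcm5 is at chr8:75109259-75109558 (plus strand), where TTTCGCGC at -153 and TTTGGCGC on the reverse strand at -149 overlap and appear as 1 run of capitals. That of Mcm3 is at chr1:20820263-20820562 (minus strand), with TTTCCCGC on the reverse strand at 19 and TTTGGCGC at 38. Mcm7 has a second window without a match, Mcm2 has none in its window, and Mcm4 has no window in the table.
Mcm7: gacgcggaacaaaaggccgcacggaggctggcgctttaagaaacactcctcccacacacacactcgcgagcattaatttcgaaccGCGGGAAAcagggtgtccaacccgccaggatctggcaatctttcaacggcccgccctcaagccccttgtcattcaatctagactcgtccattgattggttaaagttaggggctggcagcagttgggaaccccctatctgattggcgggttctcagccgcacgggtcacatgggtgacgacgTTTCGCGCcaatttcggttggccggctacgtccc
Mcm5: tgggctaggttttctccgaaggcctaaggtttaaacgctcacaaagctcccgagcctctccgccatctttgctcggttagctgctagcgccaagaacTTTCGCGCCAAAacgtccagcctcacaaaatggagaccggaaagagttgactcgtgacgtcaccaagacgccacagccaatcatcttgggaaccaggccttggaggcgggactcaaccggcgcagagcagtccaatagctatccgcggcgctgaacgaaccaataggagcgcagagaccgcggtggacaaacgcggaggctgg
Mcm3: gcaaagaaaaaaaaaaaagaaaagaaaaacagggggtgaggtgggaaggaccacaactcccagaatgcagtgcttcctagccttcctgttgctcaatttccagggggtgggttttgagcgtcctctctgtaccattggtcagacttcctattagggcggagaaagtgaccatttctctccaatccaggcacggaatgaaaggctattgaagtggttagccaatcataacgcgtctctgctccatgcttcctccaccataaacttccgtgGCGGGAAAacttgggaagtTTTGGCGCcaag

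**Figure D3:**
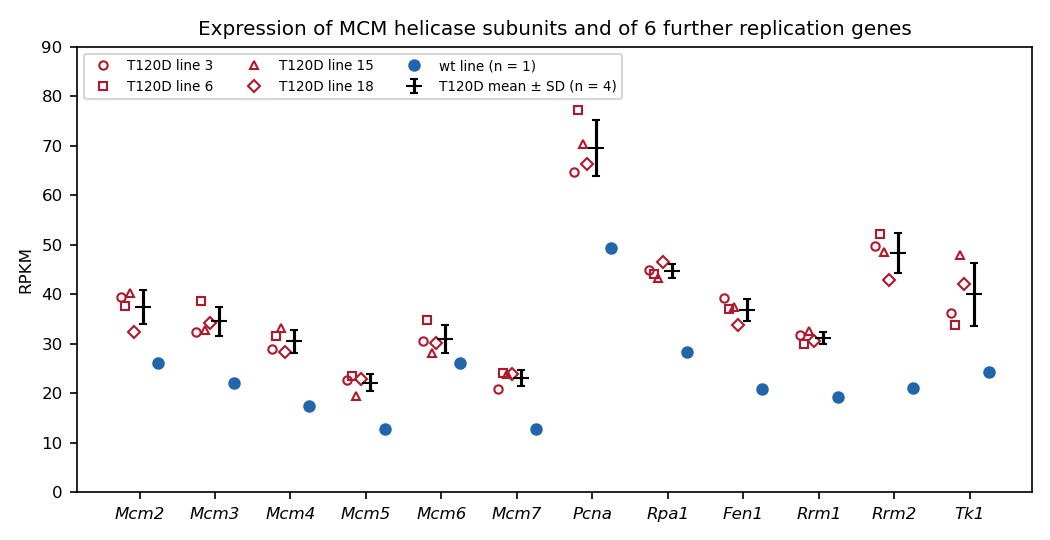
RPKM of the 6 MCM subunits and of Pcna, Rpa1, Fen1, Rrm1, Rrm2 and Tk1; open red symbols are the 4 T120D lines, black bars their mean ± SD (n = 4), and the blue point is the wt line (n = 1). Every T120D line lies above wt for each of the 12 genes, and Mcm6 has the smallest gap. The 6 genes beside the MCM subunits were picked among called members, so their place above wt follows in part from that choice.

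The 6 genes that turn the loaded ring into an active helicase were mixed, with a median log2 difference of 0.06. There was 1 call among the 6, against 7.65% of all tested genes called higher. Gins2, a subunit of the GINS complex, had 12.6, 13.2, 14.1 and 11.0 RPKM in the T120D lines, against 7.07 RPKM in the wt line. It was higher in all 4 lines, 1.80-fold on average (0.76, SE 0.17, limma adjusted p = 0.0197). With no filter on low values the adjusted p by limma was 0.0618. The other 3 GINS genes stood near wt: Gins1, Gins3 and Gins4 averaged 3.31 ± 0.651, 7.10 ± 1.25 and 6.74 ± 0.865 RPKM in T120D (SD, n = 4), against 3.37, 7.30 and 6.72 RPKM in wt. Their log2 differences were -0.03, -0.05 and 0.00, with 95% confidence intervals of -0.58 to 0.51, -0.55 to 0.45 and -0.44 to 0.43. These intervals overlap that of Gins2 (0.38 to 1.14), and the difference between subunits was not tested. Cdc45 had 4.74, 3.27, 5.74 and 5.32 RPKM in T120D and 2.70 RPKM in wt (0.62, 95% confidence interval 0.03 to 1.21, limma adjusted p = 0.16). Line 6 was the lowest of the T120D lines for this gene, and without it Cdc45 was called (limma adjusted p = 0.045). Mcm10, which helps to start the helicase, was above wt in 3 of 4 lines (0.11, limma adjusted p = 0.784).

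At the fork, Pcna was called and its loader was not. Pcna, which encodes the sliding clamp that tethers polymerases to DNA, had 64.7, 77.4, 70.4 and 66.3 RPKM in the T120D lines, against 49.5 RPKM in the wt line. It had the highest level of all members in every line and was 1.41-fold higher in T120D (0.48, SE 0.12, limma adjusted p = 0.0302). That call was lost without line 15 (0.0566), with no filter on low values (0.0895) and by limma without a trend (0.115). The annotation also holds processed copies named Pcna-ps1 and Pcna-ps2, between which and Pcna reads could be split. The 5 subunits of the clamp loader, Rfc1 to Rfc5, averaged between 2.67 RPKM for Rfc4 and 9.73 RPKM for Rfc1 in T120D. Their log2 differences ran from -0.05 for Rfc2 to 0.35 for Rfc5, with limma adjusted p of 0.248 to 0.87.

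Of the single-strand binding complex RPA, the large subunit was called. Rpa1 had 44.8, 44.0, 43.3 and 46.6 RPKM in the T120D lines and 28.4 RPKM in wt. It was the member with the smallest spread among T120D lines, an SD of 0.04 on the log2 scale, and was 1.57-fold higher (0.64, SE 0.11, limma adjusted p = 0.0063). Rpa2 had 6.88, 10.4, 8.85 and 5.96 RPKM in T120D and 5.14 RPKM in wt (0.53, 95% confidence interval -0.06 to 1.11, limma adjusted p = 0.218). Rpa3 had 3.10, 9.26, 8.24 and 8.92 RPKM in T120D and 7.47 RPKM in wt. Line 3 stood below wt and the other 3 lines above it, so the interval was wide (-0.10, -1.10 to 0.89, limma adjusted p = 0.903). The transcript is short, and these values stand for about 5 to 17 reads.

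None of the 8 polymerase and primase genes was called, although each had a positive difference (median log2 difference 0.27). Of all tested genes, 7.65% were called higher, and 4855 of 10052 had a positive difference. A count of 0 in 8 is near that share of calls. An unadjusted limma p under 0.05 was found for 2 of the 8, and for 2869 of the 10052 tested genes. Pola2, the accessory subunit of polymerase alpha and the most abundant of the 8, had 13.9, 14.0, 12.8 and 13.3 RPKM in the T120D lines, against 10.6 RPKM in the wt line. All 4 lines were above wt, 1.27-fold on average (0.32, SE 0.14, limma adjusted p = 0.171). Prim2, the large subunit of primase, averaged 4.95 ± 0.384 RPKM in T120D (SD, n = 4) and 2.84 RPKM in wt, a difference of 0.63 (SE 0.19, limma adjusted p = 0.0631), and was called under quantile normalization (0.0378). Prim1, the catalytic primase subunit, differed by 0.44 (limma adjusted p = 0.215). Of the catalytic polymerase subunits, Pola1 of polymerase alpha, Pold1 of polymerase delta and Pole of polymerase epsilon differed by 0.03, 0.19 and 0.23, with 95% confidence intervals of -0.42 to 0.49, -0.39 to 0.77 and -0.23 to 0.69. The accessory subunits Pold2 and Pole2 differed by 0.19 and 0.47, Pole2 at 0.865 RPKM in wt, which is about 4 reads. The group's level was low: the median RPKM over its genes was 4.81, against 29.0 for the MCM helicase, and what part this had in the absence of calls was not tested.

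Of the pair that finishes lagging-strand fragments, Fen1 was called and Lig1 was not. Fen1, the flap endonuclease gene, had 39.2, 37.1, 37.5 and 33.8 RPKM in the T120D lines and 20.9 RPKM in wt. The lines were 1.62 to 1.88 times wt (0.79, SE 0.12, limma adjusted p = 0.0042), and the call held under each alternative setting. Lig1, the ligase that seals the nick, had 5.07, 5.35, 7.10 and 7.07 RPKM in T120D and 6.22 RPKM in wt. Lines 3 and 6 were below wt and lines 15 and 18 above it (-0.03, 95% confidence interval -0.52 to 0.47, limma adjusted p = 0.948). The ratio of Fen1 to Lig1 RPKM was 7.74, 6.93, 5.28 and 4.78 in T120D and 3.35 in wt.

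In nucleotide supply 3 of 5 genes were called higher, against 7.65% of all tested genes, both subunits of ribonucleotide reductase among them. Rrm2, the subunit whose level follows S phase, had 49.9, 52.2, 48.6 and 42.8 RPKM in the T120D lines, against 21.2 RPKM in the wt line. Every T120D line was more than 2.02-fold above wt, and the mean was 2.28-fold higher, with the lowest adjusted p of the 49 members (1.15, SE 0.13, limma adjusted p = 0.000874). Rrm1, the large catalytic subunit, had 31.8, 30.0, 32.7 and 30.6 RPKM in T120D and 19.4 RPKM in wt. It was 1.62-fold higher (0.66, SE 0.12, limma adjusted p = 0.0078), and the ratio of Rrm2 to Rrm1 RPKM was 1.57, 1.74, 1.49 and 1.40 in T120D and 1.09 in wt. The calls of both subunits held under each alternative setting. Tk1, the cytosolic thymidine kinase gene, had 36.2, 33.8, 48.1 and 42.1 RPKM in T120D and 24.3 RPKM in wt. Lines 15 and 18 were the highest, and the mean was 1.65-fold higher (0.69, SE 0.18, limma adjusted p = 0.0363). This call ended without line 3 (0.0505) or line 18 (0.0731), by limma without a trend (0.0991) and without the filter on low values (0.145). Tyms, encoding thymidylate synthase, differed by 0.41 (95% confidence interval -0.03 to 0.84, limma adjusted p = 0.202). Dut, which removes dUTP, differed by 0.12 (-0.31 to 0.55, limma adjusted p = 0.716).

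E2F genes were called on both sides of the family, 3 of 5 as higher, against 7.65% of all tested genes. E2f3, an activator, had 8.15, 9.56, 7.89 and 8.12 RPKM in the T120D lines, against 4.39 RPKM in the wt line. It was 1.92-fold higher (0.80, SE 0.17, limma adjusted p = 0.0179), and its call held under each alternative setting. E2f1, also an activator, had 18.5, 17.6, 15.3 and 15.1 RPKM in T120D and 10.1 RPKM in wt. All 4 lines were above wt, 1.64-fold on average (0.66, SE 0.16, limma adjusted p = 0.0266), with the call lost without line 3 (0.0546), without a trend (0.0648) and without the filter on low values (0.0735). E2f7, an atypical E2F that represses E2F targets, had 8.74, 7.69, 10.8 and 10.2 RPKM in T120D and 5.22 RPKM in wt. It was 1.79-fold higher (0.73, SE 0.20, limma adjusted p = 0.0449), and the call was lost without line 3 (0.0713), line 15 (0.0792) or line 18 (0.0856), without a trend (0.0772) and without the filter (0.12). E2f8, the second atypical member, had 5.04, 6.20, 6.21 and 5.55 RPKM in T120D and 4.87 RPKM in wt (0.20, 95% confidence interval -0.23 to 0.62, limma adjusted p = 0.532). E2f2, the third activator, averaged 1.39 ± 0.430 RPKM in T120D (SD, n = 4) and 0.697 RPKM in wt, about 9 reads (0.48, -0.22 to 1.17, limma adjusted p = 0.348).

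Of the called E2F genes, E2f3 and E2f7 each had a window with 1 E2F-type match, shown in capitals, and E2f1 had none in its window. That of E2f3 is at chr13:29986014-29986313 (minus strand), with a match at -11 relative to the RefSeq start, and that of E2f7 at chr10:110745189-110745488 (plus strand), with a match at -198. Both matches read TTTCCCGC on the reverse strand.
E2f3: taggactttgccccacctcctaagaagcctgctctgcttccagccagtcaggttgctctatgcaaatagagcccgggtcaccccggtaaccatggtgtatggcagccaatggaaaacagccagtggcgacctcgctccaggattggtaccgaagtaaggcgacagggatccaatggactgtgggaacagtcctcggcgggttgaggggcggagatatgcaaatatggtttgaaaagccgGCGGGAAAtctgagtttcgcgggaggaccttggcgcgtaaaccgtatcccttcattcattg
E2f7: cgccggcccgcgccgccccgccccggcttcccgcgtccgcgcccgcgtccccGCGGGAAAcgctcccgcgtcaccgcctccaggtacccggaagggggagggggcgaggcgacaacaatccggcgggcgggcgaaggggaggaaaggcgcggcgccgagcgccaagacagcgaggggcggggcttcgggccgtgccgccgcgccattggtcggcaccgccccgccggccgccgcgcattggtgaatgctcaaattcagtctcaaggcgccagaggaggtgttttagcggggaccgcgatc

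Of the pair that maintains DNA methylation, Uhrf1, which recognises hemimethylated DNA, had 37.0, 40.6, 39.8 and 34.3 RPKM in the T120D lines and 26.0 RPKM in wt. All 4 were above wt, 1.46-fold on average (0.53, SE 0.13, limma adjusted p = 0.0277), and the call was lost without line 3 (0.0544), line 15 (0.0555), the filter on low values (0.0703) or the trend (0.0906). Dnmt1, the maintenance methyltransferase gene that Uhrf1 directs to DNA, had 14.7, 13.6, 14.4 and 13.3 RPKM in T120D and 10.9 RPKM in wt. It was above wt in all 4 lines with a smaller difference (0.33, 95% confidence interval 0.01 to 0.65, limma adjusted p = 0.16).

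Calls followed the level of expression. Among members with a mean of at least 20 RPKM, 12 of 13 were called higher, Mcm6 being the other, while 20.5% of all tested genes at that level were. Of the 7 members from 10 to 20 RPKM 3 were called, Cdt1, Gins2 and E2f1, against 9.96% of all tested genes there. Between 5 and 10 RPKM 3 of 18 members were called, Gmnn, E2f3 and E2f7, against 5.65%. None of the 11 members from 1 to 5 RPKM was called, against 2.38% of tested genes, although their median log2 difference was 0.47. Among the 31 uncalled members, 19 lay above wt in all 4 T120D lines, and 8 had a 95% confidence interval above 0. Over all tested genes, called or not, 31.1% lay above wt in all 4 lines. An unadjusted limma p under 0.05, in either direction, was found for 2869 of the 10052. The shares among uncalled genes alone were not computed. A p above the threshold does not show that a member was the same in both genotypes.

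**Figure D4:**
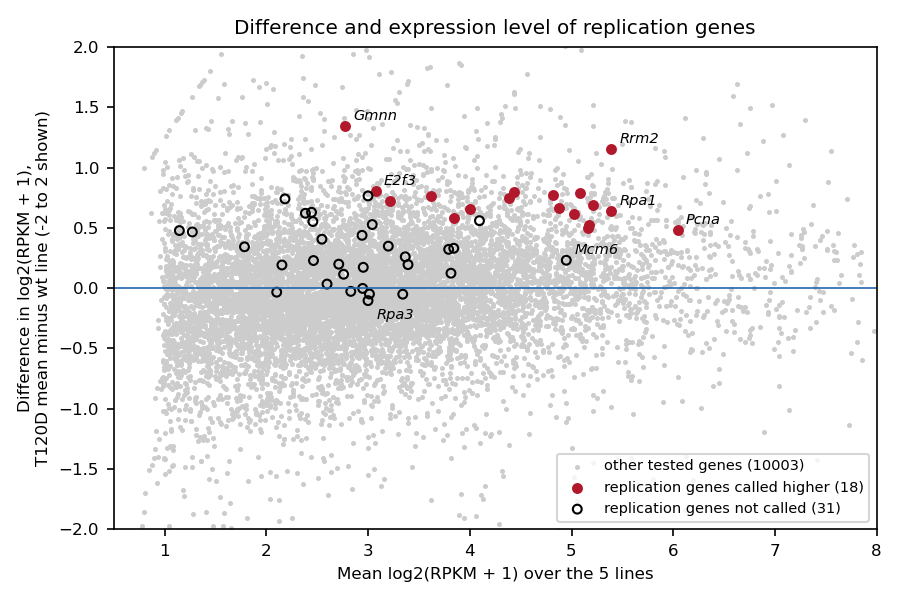
Difference in log2(RPKM + 1), T120D mean minus wt, against the mean log2(RPKM + 1) over the 5 lines; grey points are other tested genes within the plotted range, red points the 18 called members and open circles the 31 uncalled ones. Right of the level of 20 RPKM, Mcm6 is the uncalled member, and the uncalled members at low levels lie mostly above 0.

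Reads of genes on the opposite strand could enter some values, since the library kit keeps strand but its use in counting is not given in the sources used here. In the GENCODE annotation 4 called members share exon sequence with an opposite-strand gene of the tables: Mcm7 with Ap4m1 and Cops6, Gins2 with Gse1, Fen1 with Tmem258 and Tk1 with Afmid. None of these partners was called. Cops6 averaged 21.8 ± 3.48 RPKM in T120D (SD, n = 4), against 28.5 RPKM in the wt line (a difference of -0.38 at a limma adjusted p of 0.223), and Tmem258 averaged 11.8 ± 1.22 RPKM in T120D and 8.75 RPKM in wt (0.38, limma adjusted p = 0.172). Ap4m1, Gse1 and Afmid differed by -0.43, -0.31 and -0.26. The 49 members lie on 16 chromosomes in that annotation.

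A further list of 65 genes of replication and its control, outside the 49, had a lower median log2 difference, 0.22. It is a mixed list: beside replication factors it holds the retinoblastoma family, Cul4a, Cul4b and the mitochondrial kinases Tk2 and Dguok. The median without these genes was not computed, and their part in the lower value was not tested. Of the 65, 62 were tested, and 6 were called higher and 1 lower. That is 9.68% higher, against 7.65% of all tested genes. Cdc25a, the phosphatase that activates cyclin-dependent kinases at the start of S phase, had 7.63, 7.43, 8.18 and 7.74 RPKM in the T120D lines, against 3.03 RPKM in the wt line. It was 2.55-fold higher, in all 4 lines (1.12, SE 0.17, limma adjusted p = 0.0035). Chtf18, of an alternative clamp loader, averaged 7.60 ± 1.44 RPKM in T120D (SD, n = 4) and 3.54 RPKM in wt (0.91, limma adjusted p = 0.0278). Dck, the deoxycytidine kinase of nucleotide salvage, averaged 12.4 ± 1.61 RPKM in T120D and 6.72 RPKM in wt (0.78, limma adjusted p = 0.0248). The other higher genes were Asf1b, a histone chaperone (0.71), Samhd1, which breaks down deoxynucleotides (0.56), and Dtl, which directs the destruction of Cdt1 (0.50). The lower gene was Dguok, a mitochondrial deoxyguanosine kinase, at 2.28 ± 0.728 RPKM in T120D and 5.64 RPKM in wt (-1.04, limma adjusted p = 0.0459), called in 2 of the 9 alternative settings that tested it. The calls of Cdc25a and Asf1b held under each of 10 alternatives. That of Chtf18 held under 8 of 10 (limma adjusted p up to 0.101), that of Dck under 6 (up to 0.0858), and those of Samhd1 and Dtl under 4 each (up to 0.0845 and 0.0848), while the total of 7 dropped to 3 without line 3 or line 18 and to 4 without line 15.

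Among the 30 mitotic and G2/M genes, 8 passed the test as higher (26.7%, against 7.65% of all tested genes) and 0 as lower (5.45%), with a median log2 difference of 0.30. Kif20a, a mitotic kinesin gene, averaged 14.1 ± 1.54 RPKM in T120D (SD, n = 4) and 6.97 RPKM in wt (0.92, limma adjusted p = 0.0089). Bub1, a checkpoint kinase gene, averaged 6.81 ± 0.915 RPKM in T120D (SD, n = 4) and 3.13 RPKM in wt (0.91, limma adjusted p = 0.0183). Birc5, which encodes survivin, averaged 59.5 ± 4.48 RPKM in T120D (SD, n = 4) and 32.1 RPKM in wt (0.87, limma adjusted p = 0.0024). Cdk1, the kinase of mitotic entry, averaged 25.2 ± 1.99 RPKM in T120D (SD, n = 4) and 13.7 RPKM in wt (0.83, limma adjusted p = 0.0059). Foxm1, Prc1, Ube2c and Cenpa differed by 0.74, 0.63, 0.59 and 0.45. The other 22 genes were not called, among them Mki67, with a mean of 41.2 RPKM in T120D and 39.9 RPKM in wt (0.05). Of the 30 genes, 26 had a difference above 0 and 4 below 0. The medians of the 3 lists and of all tested genes thus stood at 0.48 for the 49 members, 0.22 for the further factors, 0.30 for mitosis and -0.02 for all. The calls of Kif20a, Birc5 and Cdk1 held under each of 10 alternatives, those of Bub1 and Foxm1 under 9 (limma adjusted p up to 0.0616 and 0.0513), of Prc1 under 8 (up to 0.0645), of Ube2c under 7 (up to 0.0862) and of Cenpa under 6 (up to 0.103). Whether the lists differ from each other was not tested, and all share the same wt line.

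**Figure D5:**
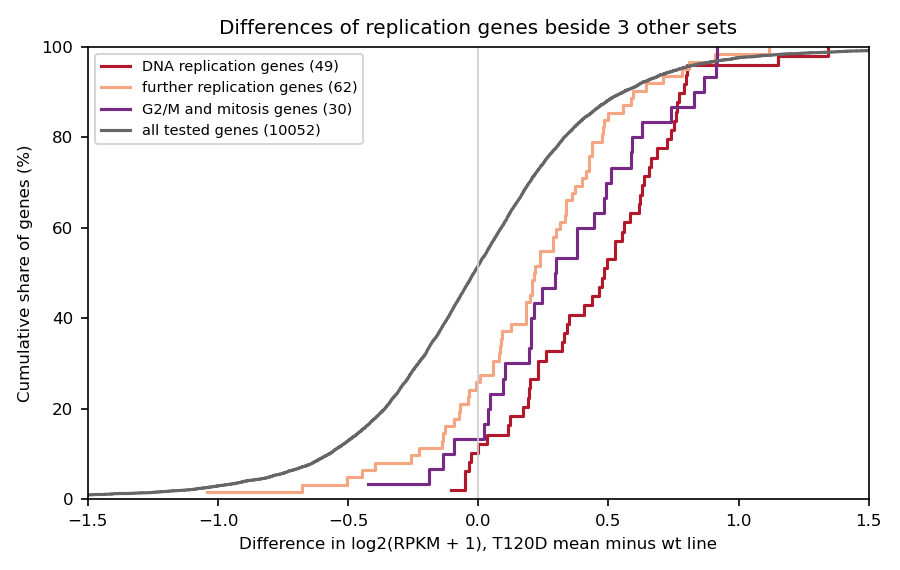
Cumulative share of genes (%) against the difference in log2(RPKM + 1), T120D mean minus wt, for the 49 replication genes, 62 further replication genes, 30 G2/M genes and all 10052 tested genes. The curve of the 49 genes lies right of the others over most of its range, with a median of 0.48 against -0.02 for all tested genes.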

How the data were processed

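The authors deposited RPKM per gene symbol for each of the 5 lines, per the file headers; Partek and the build mm9 were used, per the submitters' processing notes. For the aligner, the annotation, strand and multiply matching reads, details were not given in the sources used here. RPKM was analysed as log2(RPKM + 1) with limma 3.58.1 in R 4.3.3 (two-sided moderated test, variance trend over mean expression, 3 residual and 5.99 prior degrees of freedom). The code was tested on simulated data in which wt was drawn with the mean and SD of the T120D lines. That run could not check whether the wt line varies like them. The values are RPKM, so no count model was used. Depth was estimated from GENCODE genes with a single transcript, as a depth at which many low values are whole reads. At that depth 46.7% to 53.1% of values under 20 reads lay within 0.05 of a whole read. Evenly spread values at a fixed depth would give 10%. Choosing the depth by this share raises it, by an amount that was not tested. Approximate reads rest on GRCm38 lengths. It is not stated that lines came from separate cultures, so p-values measure the spread between these samples, which may be technical. Members and lists were chosen with earlier results of these data known. Values by line were given for called members and, in a group without a call, for the member of highest expression; others were given where a statement needed them, after their values were seen. Promoter windows were printed for called members with an E2F-type match, at most 6, by log2 difference.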

Additional observations from a re-analysis of the deposited data

Results flagged for a closer look

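Within the 4 T120D lines, each of the 49 members was checked for 1 line far from the other 3, by the gap to the nearest line as a share of the range on the log2(RPKM + 1) scale. Dixon's critical value for 4 samples at the 95% level was passed by 6 of 49 members. The nominal rate for normally distributed values is about 1 in 20. The share over all tested genes was not computed, so an excess in the members is not shown. Line 3 was the low one for Mcm7 (share 0.94; 20.8 RPKM in line 3 and 23.8 to 24.0 RPKM in the others), for Gins3 (0.876; 5.25 and 7.55 to 7.94 RPKM) and for Rpa3 (0.886; 3.10 and 8.24 to 9.26 RPKM). Line 18 was the low one for Tyms (0.975; 4.49 RPKM, with 5.41 to 5.43 RPKM in the others) and the high one for Pole (0.844; 5.59 and 4.33 to 4.51 RPKM). Line 6 was the high one for E2f3 (0.833; 9.56 and 7.89 to 8.15 RPKM). For Mcm7 and E2f3 all 4 T120D lines stayed above wt. The line 3 value of Rpa3 stands for about 5 reads.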

How the results depend on the processing

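The counts of calls, the members' median and each member's difference were recomputed under 10 alternative settings (9 for members averaging under 5 RPKM), and the E2F-type share under 1. No called member's difference changed sign. Ratios, expression bands, opposite-strand genes and the check for distant lines had no alternative. Of the 18 called members, 8 were called under all 10 (Mcm4, Mcm5, Mcm7, Rpa1, Fen1, Rrm1, Rrm2 and E2f3), and 10 lost the call under at least 1. Without the filter on low values 9 members were called, with 3 genes of the further list and 4 G2/M genes. By limma without a trend the counts were 10, 2 and 5, and 816 genes were called over all tested genes, against 1317. The share called higher over all tested genes was then 3.14% without the filter and 4.53% without the trend, and the share of higher genes among all calls was 45.8% without the filter, against 58.4% with it. Leaving out 1 T120D line gave 12 to 18 called members, 3 to 7 further factors, 6 to 9 G2/M genes, and a median difference of the members of 0.43 to 0.52. That median was 0.54 with a pseudocount of 0.1 RPKM. Median scaling and quantile normalization each left 18 members called and moved the median of all tested genes by less than 0.1. With the words TTTCGCGC and TTTGGCGC alone, 31.7% of members with a promoter window held a match, against 0.929% of all genes and 2.07% of tested genes with one. No paired analysis was possible because wt had 1 line. By estimate, 6 members (Gmnn, Gins1, Rfc4, Rpa3, Pole2 and E2f2) had under 10 reads in at least 1 line, so that counting error is large there.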
